A study of Mus musculus with 6 samples.

Results

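The immediate early genes *Fos*, *Fosb*, *Jun*, *Junb*, *Egr1*, *Atf3*, *Ier2*, *Ier3*, *Nr4a1* and *Dusp1* were examined in RNA-seq of whole mouse aorta. They are a list of 10 genes chosen by name and matched by NCBI gene identifier, and all 10 were found among the 18191 genes of the expression table. The study compared 3 libraries of wild type (WT) male mice with 3 libraries of male mice heterozygous for a knockout of *Npr1* (NPR1+/-), a line made with CRISPR-Cas9 per the labels. *Npr1* encodes the receptor that turns binding of atrial and B-type natriuretic peptide into cyclic GMP. Both genotypes were otherwise untreated as far as the labels say, and the age of the mice is not given in the sources used here. The labels do not say whether the libraries of a genotype come from separate animals, so the p-values measure only the spread between these libraries. In the table the heterozygous columns are named Knockdown. They are called NPR1+/- here, with the replicate numbers 1 to 3 of the labels.

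Immediate early genes are transcribed within minutes of a stimulus, from promoters that are already accessible, without any new protein being made. In vessels they respond to growth factors, stretch, hormones and injury, and the handling of freshly removed tissue is a known stimulus as well. Extracellular signal reaches them mainly through the MAP kinases and through cyclic AMP and calcium, which act on serum response factor with its partners and on CREB. Their products include transcription factors that set the next wave of genes (the AP-1 subunits, *Egr1*, *Atf3*, *Nr4a1*). They also include a feedback regulator that ends the signal (*Dusp1*) and a regulator of cell survival (*Ier3*).

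The promoter stretches of 6 members are shown because the expression data split the list into genes whose high libraries were the same (*Fos*, *Atf3*, *Dusp1* and *Jun* among them) and genes with another order (*Junb*, *Ier3*). Each is the 150 bases before the gene's start in RefSeq on GRCm38.p6, written 5′ to 3′ on the gene's strand. Capitals mark matches to the cyclic AMP response element, its core TGACG read on either strand, the AP-1 element, the CArG box, the TATA box and the EGR element.
Fos, chr12:85473740-85473889, plus strand: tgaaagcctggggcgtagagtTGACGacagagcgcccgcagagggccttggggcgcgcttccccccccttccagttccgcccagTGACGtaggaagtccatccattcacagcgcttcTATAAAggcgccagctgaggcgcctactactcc
Atf3, chr1:191183334-191183483, minus strand: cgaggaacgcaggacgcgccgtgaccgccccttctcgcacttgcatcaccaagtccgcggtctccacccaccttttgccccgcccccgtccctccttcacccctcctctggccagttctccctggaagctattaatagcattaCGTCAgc
Dusp1, chr17:26508473-26508622, minus strand: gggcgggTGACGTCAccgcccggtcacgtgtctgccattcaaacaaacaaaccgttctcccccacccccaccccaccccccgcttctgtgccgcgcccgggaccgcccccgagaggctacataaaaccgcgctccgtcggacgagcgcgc
Jun, chr4:95052223-95052372, minus strand: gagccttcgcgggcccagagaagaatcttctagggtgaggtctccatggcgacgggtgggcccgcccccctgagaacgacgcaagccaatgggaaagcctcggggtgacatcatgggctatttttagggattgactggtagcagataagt
Junb, chr8:84978749-84978898, minus strand: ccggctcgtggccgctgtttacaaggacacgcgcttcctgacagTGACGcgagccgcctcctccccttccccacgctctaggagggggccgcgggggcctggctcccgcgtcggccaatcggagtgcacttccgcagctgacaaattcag
Ier3, chr17:35821563-35821712, plus strand: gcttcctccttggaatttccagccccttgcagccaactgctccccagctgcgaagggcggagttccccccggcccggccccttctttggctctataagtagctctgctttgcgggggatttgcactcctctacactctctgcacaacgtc

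RefSeq promoters were matched for 8 of the 10 members, without *Egr1* and *Ier2*, and motifs were searched on both strands over the 250 bases before the start in the table. For *Nr4a1* that start lies inside the gene as annotated, and for *Fosb* the window overlaps the annotated gene, so in both the start used is not the outermost one. The core TGACG was present in 6 of the 8 (*Fos*, *Fosb*, *Junb*, *Atf3*, *Nr4a1* and *Dusp1*), compared with 17.9% of all 27025 promoters. It lies inside the full cyclic AMP response element TGACGTCA, which was found only in *Dusp1* among the 8, from 143 to 136 bases before the start, and in 1.62% of all promoters. *Fos* held the core from 129 to 125 and from 66 to 62 bases before its start, and *Atf3* from 7 to 3 bases before its own. *Nr4a1* held 4 copies of it. The EGR element GCGNGGGCG, the binding sequence of the *Egr1* family, was matched in *Fosb* and *Nr4a1* and in 4.65% of all promoters. The GC box GGGCGG, bound by Sp1, was found in 7 of the 8, all except *Junb*, and in 32.9% of all promoters. TATAAA was matched in *Fos* alone and in 13% of all promoters. No match to the AP-1 element TGANTCA or to the CArG box was found in these windows, and these occur in 6.87% and 1.4% of all promoters. Other forms of these elements, and sites further upstream, were not searched. *Fosb*, *Atf3*, *Nr4a1* and *Dusp1*, which shared the set of highest libraries of *Fos*, held the core as *Fos* did. *Jun*, which also shared that set, lacked the core. Of the searched members with another set, *Junb* held the core and *Ier3* lacked it. Whether the core has a part in the levels of these genes was not tested.

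The 6 libraries held 13510970 to 16664343 estimated counts, and 3 counts corresponded to 0.180 to 0.222 CPM (counts scaled to the same library total). Every member was far above that, with 138 counts of *Fos* in NPR1+/- 1 as the lowest value of any member. *Npr1* itself was measured at 453, 611 and 633 CPM in the WT libraries and at 295, 452 and 527 CPM in the NPR1+/- libraries. Its log2 fold change was -0.41 ± 0.27 (SE), with an adjusted p of 0.999 by edgeR, and NPR1+/- stood at 65.2%, 73.9% and 83.2% of the WT library of the same number. The 8 smooth muscle markers, which define the main cell type of the aortic wall, were detected in all libraries, with summed levels of 21375 to 37870 CPM in WT and 12821 to 34150 CPM in NPR1+/-. The 11 neuron markers summed to 619 CPM in NPR1+/- 1 and to 79.5 to 97.3 CPM in the other libraries, where 6 of them, *Th* and *Dbh* included, were at 0 in some, so this library stood apart and results are also given without it where they change.

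The question of the genotype comparison was whether loss of an *Npr1* copy goes with another level of the immediate early genes in the aorta. None of the 10 was called different between NPR1+/- and WT (adjusted p under 0.05, with log2 fold change past 0.5 in either direction), and for no member did the libraries of the genotypes separate. What the members showed instead was a wide spread between libraries of the same genotype. *Fos* ranged 6.54-fold over the 6 libraries, *Fosb* 5.55-fold and *Atf3* 4.42-fold, while *Ier2* and *Junb* ranged 1.76-fold and 1.6-fold.

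*Fos* (chr12:85473890-85477274) encodes the AP-1 subunit that must pair with a Jun protein to bind DNA. Its level was 14.1, 34.4 and 32.8 CPM in WT 1, 2 and 3, and 9.83, 64.3 and 16.2 CPM in NPR1+/- 1, 2 and 3. The lowest and the highest library of all 6 were both NPR1+/-, so the WT values lay between those of the other genotype. The means were 27.1 ± 11.2 CPM (SD, n = 3) in WT and 30.1 ± 29.8 CPM in NPR1+/-, and the log2 fold change was 0.15 ± 0.71 (SE), with an adjusted p of 0.999 by edgeR.

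*Fosb* (chr7:19302696-19310118), the AP-1 subunit closest to *Fos*, was measured at 17.2, 55.4 and 49.5 CPM in WT and at 9.98, 42.5 and 16.7 CPM in NPR1+/-. It had the largest genotype difference of the list, with a log2 fold change of -0.82 ± 0.62 and an adjusted p of 0.999 by edgeR. Among the members it was the only gene with a lower level in NPR1+/- than in WT at every replicate number, at 58.0%, 76.7% and 33.7% of WT for the numbers 1, 2 and 3. A lower level at every number was seen for 16.9% of all genes tested, so 1 of 10 members is no more than that background. The labels do not say that libraries of the same number were paired, so a block by replicate number is an assumption. In a fit with that block, *Fosb* differed by -0.91 ± 0.22. Its unadjusted p fell from 0.231 to 0.00382, with an adjusted p of 0.175 by edgeR. That made *Fosb* the 1 member with an unadjusted p under 0.05 in the blocked fit, in which 12.4% of all genes had such a p.

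*Jun* (chr4:95049036-95052222) encodes an AP-1 subunit that can bind DNA without a Fos protein. In WT it was at 89.3, 166 and 175 CPM, and in NPR1+/- at 111, 174 and 103 CPM. WT 2, WT 3 and NPR1+/- 2 lay close together at the top, and the other three libraries lay close together at the bottom. *Junb* (chr8:84976909-84978748), a Jun protein that often opposes *Jun*, did not share this order, with 48.3, 39.9 and 35.3 CPM in WT and 42.5, 56.4 and 37.9 CPM in NPR1+/-. For *Junb* WT 1 was above WT 2 and WT 3, the reverse of *Jun* and *Fos*. The log2 fold changes were -0.15 ± 0.32 for *Jun* and 0.15 ± 0.19 for *Junb*, both with an adjusted p of 0.999 by edgeR.

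*Egr1* (chr18:34861207-34864956), a zinc finger factor induced by growth factors and injury in the vessel wall, was measured at 84.3, 117 and 148 CPM in WT and at 57.2, 157 and 73.0 CPM in NPR1+/-. The libraries with its highest and lowest level were NPR1+/- 2 and NPR1+/- 1. *Atf3* (chr1:191170296-191183333), a stress-induced factor of the ATF/CREB family, was at 20.7, 91.4 and 59.9 CPM in WT and at 25.9, 86.4 and 29.4 CPM in NPR1+/-. Its widest difference lay inside the WT group, where WT 2 was 4.42-fold above WT 1. *Nr4a1* (chr15:101253902-101274795), an orphan nuclear receptor, was at 66.8, 147 and 107 CPM in WT and at 71.5, 142 and 60.5 CPM in NPR1+/-. *Nr4a1* and *Atf3* shared WT 2 as their highest library, with NPR1+/- 2 next. The log2 fold changes were -0.28 ± 0.41 for *Egr1*, -0.28 ± 0.64 for *Atf3* and -0.23 ± 0.40 for *Nr4a1*, with adjusted p of 0.999 for each by edgeR.

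*Dusp1* (chr17:26505591-26508472) encodes the nuclear phosphatase that switches off MAP kinases. Its level was 155, 257 and 325 CPM in WT and 145, 349 and 215 CPM in NPR1+/-, with NPR1+/- 2 highest and NPR1+/- 1 lowest. *Ier3* (chr17:35821713-35822911), a regulator of cell survival, was at 20.7, 32.0 and 42.2 CPM in WT and at 28.9, 43.9 and 33.6 CPM in NPR1+/-. For *Ier3* WT 1 alone stood at the bottom. *Ier2* (chr8:84661331-84662852), a nuclear protein of the early growth response, was at 37.3, 32.5 and 33.8 CPM in WT and at 25.4, 44.7 and 33.0 CPM in NPR1+/-. The WT libraries of *Ier2* were within 1.15-fold of each other and lay inside the range of the NPR1+/- libraries. The log2 fold changes were -0.06 ± 0.39 for *Dusp1*, 0.16 ± 0.28 for *Ier3* and -0.01 ± 0.21 for *Ier2*, with adjusted p of 0.999, 0.999 and 1.00 by edgeR.

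**Figure D1:**
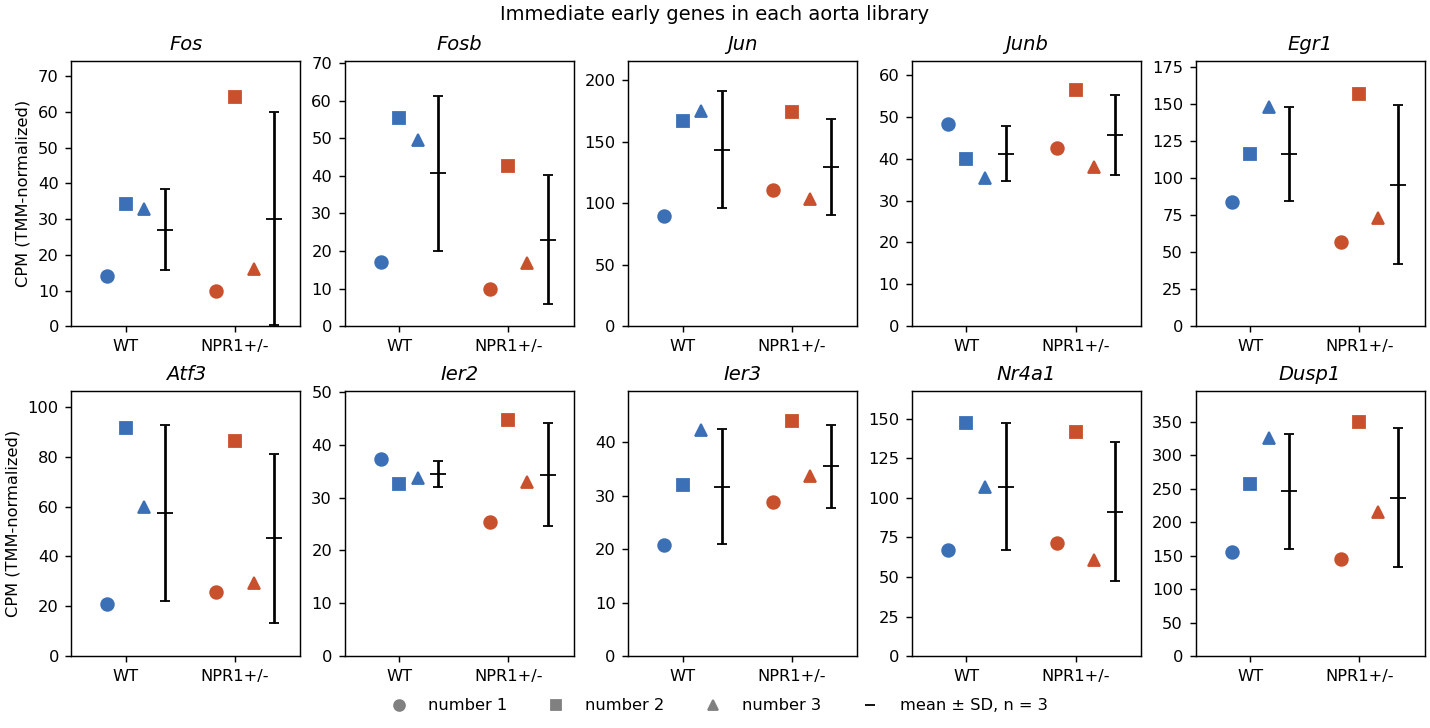
TMM-normalized CPM of the 10 immediate early genes in each library of WT (blue) and NPR1+/- (red), with the symbol giving the replicate number and the black bar the mean ± SD of 3 libraries. In every panel the groups overlap, and in *Fos*, *Fosb*, *Egr1*, *Atf3*, *Jun*, *Nr4a1* and *Dusp1* the square of NPR1+/- 2 lies far above the circle and the triangle of the same genotype.

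By edgeR, 3 members had a higher and 7 a lower estimate in NPR1+/-. The median of their log2 fold changes was -0.10, against 0.01 over all 13938 genes tested. The estimates ran from -0.82 for *Fosb* to 0.16 for *Ier3*. None of the 10 had an unadjusted p under 0.05, while 2.96% of all genes did, and the percentage of all genes called was 0 as well. The libraries of the genotypes did not overlap for 0 of the 10 members, compared with 7.48% of all genes. An exact two-sided permutation test of each member's log2 CPM gave p from 0.2 to 0.9, where 3 libraries against 3 cannot go below 0.1. With DESeq2 in place of edgeR, 16 genes of the table were called and no member was among them. For every member except *Fosb* the standard error exceeded the size of the estimate, with *Fos* (0.71) and *Atf3* (0.64) the largest. Differences of the size estimated were thus not detectable with these libraries.

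The median of the list depended on single libraries, and its size moved most when NPR1+/- 2 was left out. Within NPR1+/- that library was the highest for every member, so leaving it out was bound to lower each estimate. The lower estimates and smaller p of that fit are therefore a description. Without NPR1+/- 2, all 10 members had a lower estimate in NPR1+/- than in WT. Their median log2 fold change was -0.58, against 0.01 over all genes in that fit. The values were -1.06 for *Fos*, -1.61 for *Fosb*, -1.05 for *Atf3*, -0.84 for *Egr1* and -0.70 for *Nr4a1*. *Fosb* and *Egr1* then had unadjusted p of 0.0271 and 0.0220 by edgeR. In that fit 3% of all genes had an unadjusted p under 0.05, and the adjusted p of the members remained at 0.959 or above. Without NPR1+/- 1, the library with the high neuronal markers, the median was 0.08, and *Fos* stood at 0.56. Without WT 2 the median was 0.02, so the direction of the list turned when either of these libraries was left out.

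**Figure D2:**
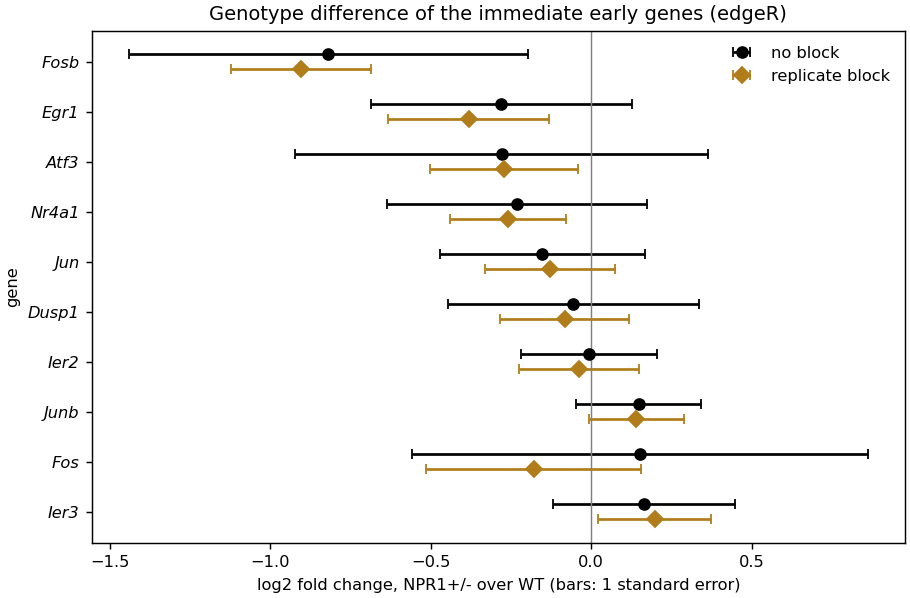
Log2 fold change of NPR1+/- over WT for each member by edgeR, with bars of 1 standard error, without (black) and with (brown) the replicate number as a block. The estimates without the block run from -0.82 for *Fosb* to 0.16 for *Ier3*, and the block turned the sign of *Fos* from 0.15 to -0.18.

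The spread between libraries of the same genotype was the larger feature of these genes. As a measure, the SD of log2 CPM within each genotype was pooled over WT and NPR1+/-. It was 1.11 for *Fos*, 1.03 for *Atf3* and 0.99 for *Fosb*, which placed these 3 members at the 97.3, 96.4 and 95.9 percentile of all genes tested. *Nr4a1* (0.61), *Egr1* (0.61) and *Dusp1* (0.59) lay between the 83.1 and the 84.6 percentile. *Jun* followed with 0.48 and *Ier3* with 0.42. *Ier2* and *Junb*, at 0.30 and 0.26, were at the 52.8 and 46.7 percentile close to the median gene. The median of the 10 was 0.60, against 0.28 for all genes tested, and 9 members were above the latter. The median gene ranged 1.67-fold over the 6 libraries.

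Spread was not a property of either genotype alone. Within NPR1+/- the highest library exceeded the lowest 6.54-fold for *Fos*, 4.26-fold for *Fosb* and 3.34-fold for *Atf3*. Within WT the same ratios were 2.43, 3.22 and 4.42. *Jun* and *Ier3* ranged more widely within WT (1.96 and 2.04) than within NPR1+/- (1.68 and 1.52), and *Ier2* less widely (1.15 against 1.76). Without NPR1+/- 2 the SD was 0.65 for *Fos*, 0.36 for *Egr1* and 0.17 for *Ier2*, and without NPR1+/- 1 it was 0.20 for *Ier2*.

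**Figure D3:**
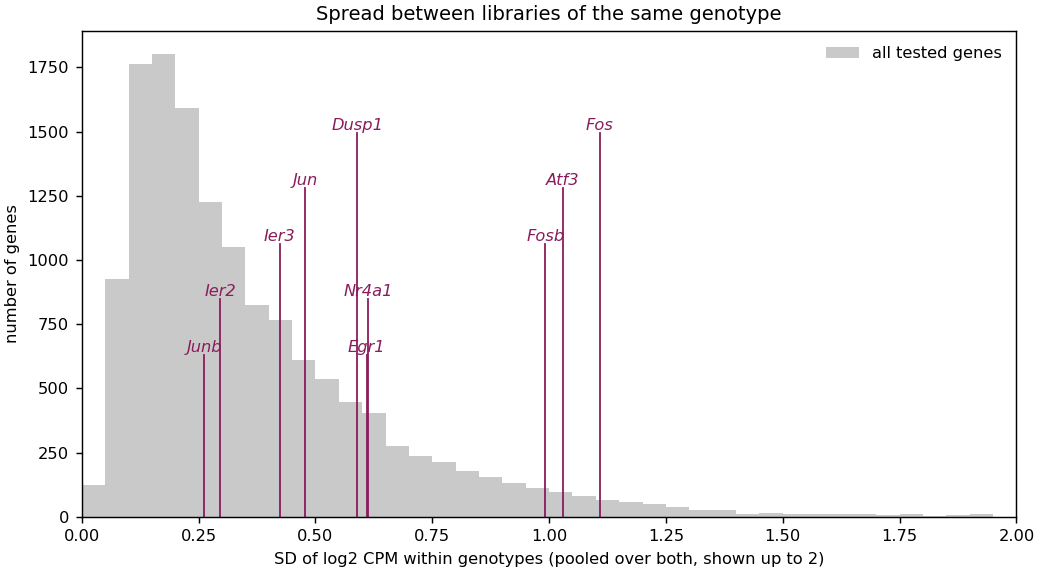
Histogram of the SD of log2 CPM between libraries of the same genotype, pooled over the genotypes, for all genes tested (grey), with each immediate early gene as a line whose height has no meaning. *Fos*, *Atf3* and *Fosb* lie in the right tail above 0.74, the 90th percentile, while *Junb* and *Ier2* lie near the median of 0.28.

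The members moved together across libraries, and the order cut across genotype. In 7 of the 10 (*Fos*, *Fosb*, *Jun*, *Egr1*, *Atf3*, *Nr4a1* and *Dusp1*) the 3 highest libraries were NPR1+/- 2, WT 2 and WT 3, in some order. This set of libraries was noticed in the values and is a description. It was also the top set of 13.8% of all genes tested, and the opposite set was the top set of 10.6%. NPR1+/- 2 was the highest library in 6 members and WT 2 in 3. NPR1+/- 1 was the lowest in 5 and WT 1 in 3. For *Fos* the 3 high libraries averaged 43.8 CPM and the other libraries 13.4 CPM. The same averages were 79.2 and 25.3 CPM for *Atf3*, and 310 and 172 CPM for *Dusp1*. Summed over the 10 members, the level was 554, 973 and 1009 CPM in WT and 527, 1160 and 618 CPM in NPR1+/-.

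Each member's log2 CPM was set against the mean of the other 9 over the 6 libraries. All members are read from the same libraries, so they share each library's depth and tissue makeup. The Pearson correlation was 0.98 for *Fos*, 0.94 for *Egr1*, *Atf3* and *Dusp1*, 0.92 for *Jun*, and 0.91 for *Fosb* and *Nr4a1*. *Ier3* reached 0.73, *Ier2* 0.59 and *Junb* 0.12. By rank, as Spearman's rho, *Ier3* was at 0.77 like *Fosb* and *Atf3* and above *Jun* (0.66) and *Nr4a1* (0.60), while *Ier2* (0.49) and *Junb* (0.09) remained the lowest.

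**Figure D4:**
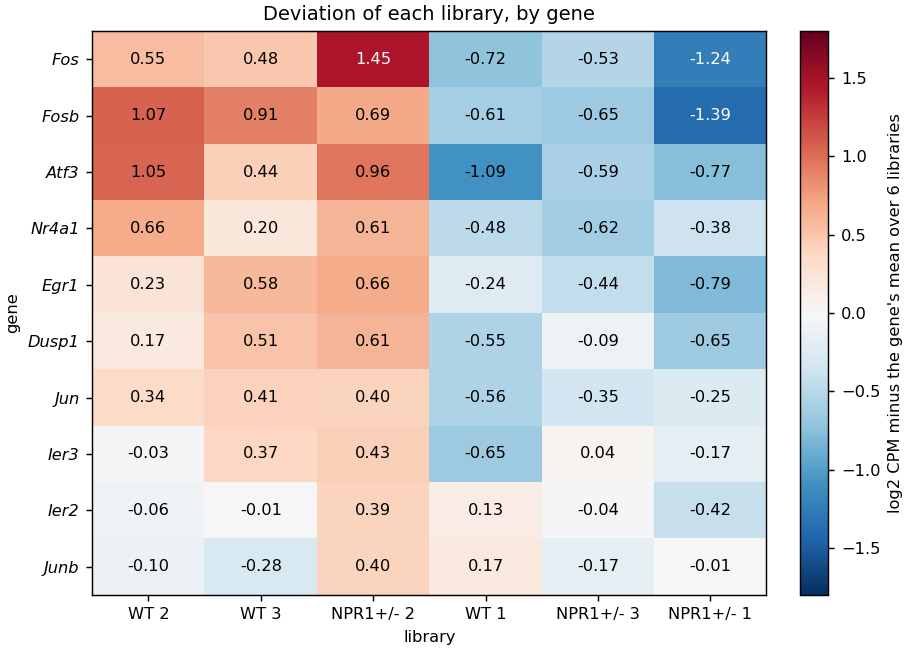
Log2 CPM of each member in each library minus the member's mean over the 6 libraries, with red above and blue below it. The columns WT 2, WT 3 and NPR1+/- 2 are red and WT 1, NPR1+/- 3 and NPR1+/- 1 are blue for the upper 7 genes, from 1.45 for *Fos* in NPR1+/- 2 to -1.39 for *Fosb* in NPR1+/- 1, and the pattern fades in *Ier3*, *Ier2* and *Junb*.

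Cell type markers moved across the same libraries in part. Smooth muscle markers summed to 35526, 37870 and 33652 CPM in WT 2, WT 3 and NPR1+/- 2, where the members were high, and to 21375 and 12821 CPM in WT 1 and NPR1+/- 1. NPR1+/- 3 had 34150 CPM of them with members at the low level of 618 CPM, so the orders did not match in that library. The median spread of the 8 smooth muscle markers was 0.64, and 4 of them had the members' top set, beside 13.8% of all genes. Adipocyte markers ran the other way, with 7717 and 11229 CPM in WT 1 and NPR1+/- 1 and 1343 to 3492 CPM in the other libraries. Fibroblast markers ranged from 2522 to 4641 CPM, macrophage markers from 210 to 524 CPM and Schwann cell markers from 209 to 436 CPM. No marker list had the order of the 7 genes as a whole, and the part of cell makeup in the members' spread was not tested. In whole aorta, fewer cells of a type and less RNA per cell cannot be told apart. The time from death to lysis of each aorta is not given in the sources used here, and whether handling of the tissue had a part in the spread was not tested.

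**Figure D5:**
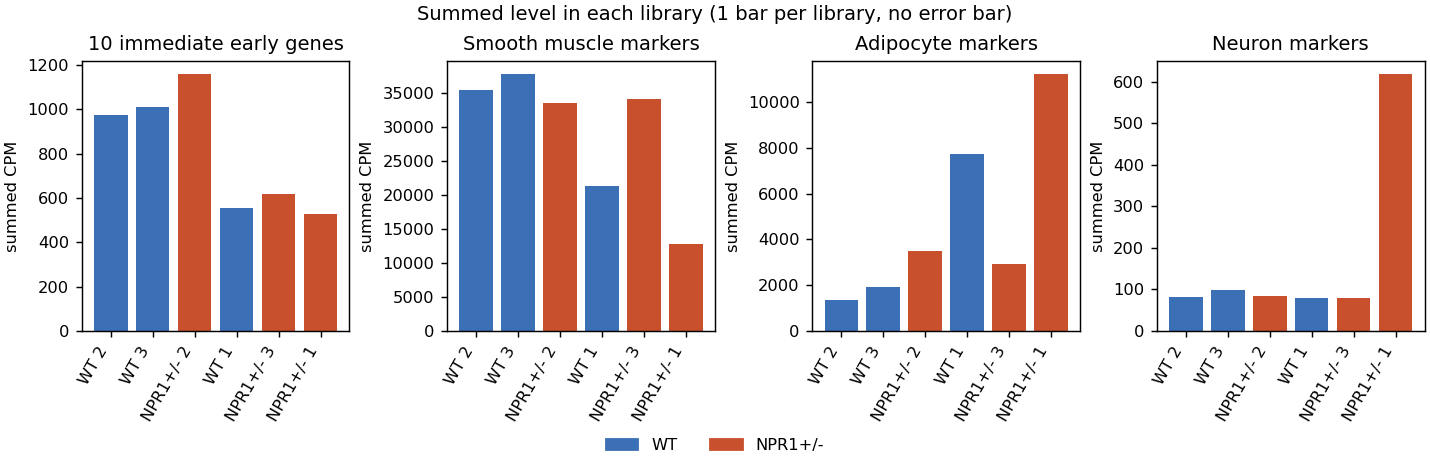
Summed CPM in each library of the 10 immediate early genes and of smooth muscle, adipocyte and neuron markers, 1 bar per library in the order of the plot of deviations. The members are at 973 to 1160 CPM in the left 3 libraries and at 527 to 618 CPM in the right 3, smooth muscle markers are high in NPR1+/- 3 as well, and neuron markers stand out at 619 CPM in NPR1+/- 1.

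Levels were compared between genes per length, as FPKM (fragments scaled by transcript length and library size). *Dusp1* was the most abundant member, with a mean of 124 ± 42.8 FPKM (SD, n = 6), and its range of 72.7 to 178 FPKM did not overlap that of the next gene, *Jun*, at 42.4 ± 12 FPKM. Below it followed *Nr4a1* (38.8 ± 15.4), *Egr1* (34.3 ± 13), *Ier3* (31.2 ± 7.75), *Atf3* (26.5 ± 16.1), *Junb* (23.6 ± 4.21) and *Ier2* (22.8 ± 4.27 FPKM). The ranges of these neighbours overlapped, and their order changed from library to library. *Fos* and *Fosb* were the lowest, with 13.6 ± 9.54 and 8.73 ± 5.36 FPKM, and *Fos* was above *Fosb* in 6 of 6 libraries. *Fos* and *Fosb* were also among the widest in spread, while *Ier2* and *Junb*, the next lowest in level, were the narrowest.

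Close relatives of the members were read from the same table. *Fosl2*, another Fos protein, was at 14.0, 27.8 and 28.9 FPKM in WT and at 15.5, 26.0 and 17.2 FPKM in NPR1+/-, with the high and low libraries of *Fos*. *Fosl1* reached at most 1.36 FPKM and was not tested. *Jund*, the Jun protein that is present without a stimulus, was at 159, 299 and 230 FPKM in WT and at 138, 242 and 209 FPKM in NPR1+/-. *Ier5* was at 8.18, 13.8 and 12.1 FPKM in WT and at 7.31, 15.5 and 9.80 FPKM in NPR1+/-. *Egr3*, *Ier5*, *Jund*, *Fosl2* and *Dusp5* were the 5 of 12 tested relatives with NPR1+/- 2, WT 2 and WT 3 on top. Of all genes tested, 13.8% had this top set. *Dusp4*, which like *Dusp1* acts on MAP kinases, had another order, at 5.83, 0.96 and 0.94 FPKM in WT and 6.25, 1.65 and 0.78 FPKM in NPR1+/-, with number 1 on top in both genotypes. *Nr4a3* was highest in NPR1+/- 2 (11.8 FPKM) and WT 2 (9.67 FPKM), as *Nr4a1* was among its own libraries.

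Other immediate early genes were taken from lists fixed by name, which include the relatives above. Of 18 further transcription factors 16 were tested, with 10 higher and 6 lower estimates, and of 32 effectors and feedback genes 31 were tested, with 19 higher and 12 lower. No gene of either list had an unadjusted p under 0.05 or was called by edgeR. Their median log2 fold changes were 0.08 and 0.13. Their median spread, the pooled SD of log2 CPM, was 0.44 and 0.42, between the 0.60 of the members and the 0.28 of all genes. Together 19 of these 47 genes had the top set of libraries seen in the members, compared with 13.8% of all genes. The relatives with that set are counted again among the 19.

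Within these lists *Klf2* and *Klf4*, Krüppel-like factors known for their response to blood flow in endothelium, had the smallest p among the transcription factors. *Klf2* was at 62.5, 65.5 and 88.7 FPKM in WT and at 91.5, 121 and 93.7 FPKM in NPR1+/-, without overlap of the groups. Its log2 fold change was 0.51 ± 0.21, with an unadjusted p of 0.0515 and an adjusted p of 0.999 by edgeR. *Klf4* was at 27.7 to 31.3 FPKM in WT and at 31.9 to 39.4 FPKM in NPR1+/-, with a log2 fold change of 0.24 ± 0.13 and an adjusted p of 0.999 by edgeR. Endothelial markers, 8 of 8 with a higher estimate in NPR1+/-, summed to 497 to 854 CPM in WT and to 911 to 1422 CPM in NPR1+/-, and their part in the values of *Klf2* and *Klf4* was not tested. *Ccn2*, the matrix protein also called CTGF, was the most abundant effector and had the members' top set of libraries. It was at 619, 1419 and 1518 FPKM in WT and at 495, 1738 and 950 FPKM in NPR1+/-. *Rhob*, a small GTPase, had another top set and ranged from 177 to 239 FPKM. *Sik1*, a kinase induced by cyclic AMP, was at 5.6 to 6.55 FPKM in WT and at 11.9, 9.16 and 5.95 FPKM in NPR1+/-. *Dusp5*, a phosphatase of ERK, was at 1.69 to 2.55 FPKM in WT and 1.2 to 1.71 FPKM in NPR1+/-. The log2 fold changes of *Sik1* and *Dusp5* were 0.55 ± 0.27 and -0.66 ± 0.32, both with an adjusted p of 0.999 by edgeR.

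Proteins that pair with AP-1 and those that switch on immediate early genes were read as well. Of 11 further AP-1 partners 10 were tested, with 6 higher and 4 lower estimates and a median spread of 0.27. Among them 1 gene, *Mafk*, had the members' top set of libraries. *Atf7* was at 12.2 to 15.4 FPKM in WT and at 11.7 to 12.1 FPKM in NPR1+/-, and *Atf4*, the factor of the integrated stress response, at 102 to 155 and at 114 to 204 FPKM. *Batf2* stayed at or below 1.01 FPKM. Of the 21 upstream kinases and promoter-binding factors 11 had a higher and 10 a lower estimate, with a median change of 0.00 on the log2 scale, and their median spread was 0.20. The members' top set of libraries was found in 8 of these 21 (38.1%) and in 13.8% of all genes. It was thus not particular to immediate early genes. *Mapk3*, which encodes ERK1, ranged from 75.8 to 90.9 FPKM over all libraries. *Mrtfa*, a coactivator of serum response factor, was at 12.04 to 16.4 FPKM in WT and at 8.65 to 14.6 FPKM in NPR1+/-. *Elk3*, a partner of serum response factor, was at 8.91 to 9.92 FPKM in WT and at 9.94 to 12.4 FPKM in NPR1+/-. No gene of these lists was called by edgeR or had an unadjusted p under 0.05, and with the replicate block 1 gene of each list did (12.4% of all genes).

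The 15 heat shock and chaperone genes, which respond to misfolded protein and other stress, were read beside the members. All 15 had a higher estimate in NPR1+/-, beside 7186 of all 13938 genes tested. The median log2 fold change of the 15 was 0.39, but none had an unadjusted p under 0.05 by edgeR and none was called. Their median spread of 0.63 was as wide as that of the members. The members' top set of libraries was found in 5 of the 15, beside 13.8% of all genes. In the blocked fit 6 of the 15 had an unadjusted p under 0.05 (12.4% of all genes), with adjusted p of 0.217 or above. *Hspb1*, a small heat shock protein of muscle, was at 487, 1468 and 1215 FPKM in WT and at 943, 3107 and 1479 FPKM in NPR1+/-. *Hspa8*, the constitutive Hsc70, was at 912, 1493 and 1377 FPKM in WT and at 1285, 2309 and 1561 FPKM in NPR1+/-. Both were lowest in WT 1 and highest in NPR1+/- 2. Of the 15 genes, 13 were highest in NPR1+/- 2, so their higher estimates lean on that library. How many of all genes were highest there was not counted, so the 13 are a description and are not set against the members. The mitochondrial chaperones *Hspe1* and *Hspd1* had another order, with *Hspe1* at 161, 108 and 94.5 FPKM in WT and 175, 185 and 149.1 FPKM in NPR1+/-.

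Among 9956 genes with a mean of at least 10 CPM outside the list, those most like the mean log2 CPM of the members over the 6 libraries were *Rabgef1* (Pearson correlation 0.997), *Rlf* (0.991), *Ier5* (0.989), *Zfr* (0.988) and *Ythdf2* (0.987). Of these genes, 2.69% reached at least 0.9 over the 6 libraries, from which members and other genes are read alike. Their amplitude differed from that of the members, since *Zfr* ranged only from 26.3 to 32.6 FPKM and *Rabgef1* from 13.2 to 19.0 FPKM.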

How the data were processed

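RNA of whole aorta was sequenced in 3 WT and 3 NPR1+/- libraries. The authors filtered reads with SOAPnuke, aligned them to a set of coding genes with Bowtie2 and ran RSEM, and deposited its estimated counts (expected counts, 68.2% of them whole numbers) and FPKM for 18191 genes. The submitters' processing notes name mm10 and DESeq2 1.4.5. Of the genes, 18070 were paired with a symbol. The members and lists were chosen with earlier results of these data known.

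Estimated counts were rounded and tested with edgeR 4.0.16 (R 4.3.3): TMM, a filter with a minimum count of 10, the quasi-likelihood test, and Benjamini-Hochberg adjustment over 13938 genes. Calls required an adjusted p under 0.05 and a log2 fold change of 0.5 or more in either direction. CPM are TMM-normalized, and log2 CPM used a prior count of 2. The scripts were tested on simulated data. Named genes were the members, the 2 genes with the smallest p and the 2 with the highest FPKM of each list, the 5 most like the members, and *Npr1*. A gene that this rule names is not reported here. Relatives of the members by family name are outside this rule and were named after their values were seen.

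Same-numbered libraries deviated together from their group means (correlations of 0.64, 0.39 and 0.24). Libraries of different numbers correlated from -0.58 to 0.44, and WT 3 with NPR1+/- 2 was higher than the same numbers 2 or 3. These correlations are read from the tested values and do not establish pairing. A fit with the replicate number as a block was run as an assumption. Alternatives were DESeq2 1.42.0, its size factors, no filter, limma 3.58.1 on log2 FPKM with a pseudocount of 0.1 or 1, no minimum fold change, and leaving out each library. Coordinates and promoter sequences are those of RefSeq on GRCm38, read from 1.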

Additional observations from a re-analysis of the deposited data

How the results depend on the processing

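No member was called in any alternative. DESeq2 called 16 genes in all, where edgeR called 0 and 2.96% had an unadjusted p under 0.05 (DESeq2: 585 genes). Each member's log2 fold change was recomputed under 13 alternatives, and 111 of the 130 values kept their direction. *Fosb* and *Egr1* stayed lower in NPR1+/- throughout. *Fos* turned from 0.15 to -0.22 with limma on log2 FPKM (pseudocount 0.1, with and without the filter), to -0.18 with a pseudocount of 1 and to -0.18 with the replicate block, which changed the call of no gene. Leaving out each library in turn gave ranges of -1.06 to 0.56 for *Fos*, -0.43 to 0.00286 for *Jun*, -0.0406 to 0.28 for *Junb*, -1.05 to 0.23 for *Atf3*, -0.25 to 0.15 for *Ier2*, -0.066 to 0.41 for *Ier3*, -0.70 to 0.0676 for *Nr4a1* and -0.45 to 0.19 for *Dusp1*, and the cause was not tested. The median of the members ranged from -0.58 (without NPR1+/- 2) to 0.08 (without NPR1+/- 1), and their median spread from 0.46 (without NPR1+/- 2) to 0.65. With 3 libraries a genotype, the spread of *Fos*, *Fosb* and *Atf3* limits what could be detected.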

Other observations

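Ratios of FPKM between members within a library, which do not depend on library size, were read for all 45 pairs. In 4 of the 45 pairs the libraries of the genotypes did not overlap, a share near the 7.48% of single genes. The pairs reuse the same members, and those given here were picked with these values in view. *Fos* over *Fosb*, partners of the same Jun proteins, was 1.43, 1.078 and 1.15 in WT and 1.71, 2.65 and 1.72 in NPR1+/-. The level of each of these genes overlapped between genotypes. *Fosb* over *Atf3* was 0.45, 0.33 and 0.45 in WT and 0.21, 0.27 and 0.30 in NPR1+/-. *Jun* over *Ier3* was 1.44, 1.74 and 1.39 in WT and 1.28, 1.32 and 1.03 in NPR1+/-. *Egr1* over *Dusp1* had the narrowest gap, at 0.34, 0.29 and 0.29 in WT and 0.25, 0.28 and 0.21 in NPR1+/-. With 3 libraries a genotype an exact two-sided permutation test cannot give a p under 0.1 for any of them, and no difference was tested.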
